A study of Sorghum propinquum with 2 samples.

Results

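Sucrose-phosphate synthase is the enzyme that joins UDP-glucose and fructose 6-phosphate into sucrose 6-phosphate, which a phosphatase then converts to sucrose. The enzyme is a main control point of sucrose synthesis in green leaves, is regulated by phosphorylation and by glucose 6-phosphate and phosphate, and also acts in tissues that import sucrose, where sucrose is broken down and made again. Grasses carry several genes for it, which in other species differ in the organs where they are expressed. The members described here are 5 loci held to be sucrose-phosphate synthases, Sb03g043900, Sb04g005720, Sb05g007310, Sb09g028570 and Sb10g025240. They were chosen by identifier, from a list and not from the deposited tables, and not by their values. All 5 were found among the 24371 loci listed for both organs. The tables pair identifiers with no gene names, and which subfamily of the enzyme each locus belongs to is not given in the sources used here.

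The plant was *Sorghum propinquum*, a wild relative of grain sorghum whose underground stems, the rhizomes, let it spread. The groups were rhizomes, with 1 RNA sequencing library, and shoots, with 1 library. Both organs were taken at the active tillering stage, when side shoots form, from 1 greenhouse-grown vegetative clone of an unnamed accession. The labels name no treatment, no genotype difference and no part of the shoot or rhizome, and they do not say how many plants of the clone were sampled. The libraries held 16862624 reads in genes from the rhizome and 17153968 from the shoot. With 1 library per organ there is no error between samples and no test, so each interval below is a 95% interval for counting error alone. As no molecular identifiers are mentioned in the labels, several reads may stem from 1 molecule. Levels are in RPKM, reads per 1000 bases of locus and per 1000000 reads, as the authors deposited them. A locus was called higher in an organ at 4-fold or more with at least 5 RPKM in the higher library.

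In the deposited scaling the summed level of sucrose-phosphate synthase transcripts in the rhizome was 0.927 times that in the shoot by RPKM. By reads it was 1.09 times. Under median-of-ratios scaling of the libraries it was 0.795 times by RPKM. Sb09g028570 was the highest member in both organs, while the weights of the members in the sum differed. Sb03g043900 and Sb05g007310 were lower in the rhizome, by 51.5-fold and 6.80-fold. Sb09g028570 and Sb04g005720 were 1.47 and 1.42 times as high in the rhizome as in the shoot, and Sb10g025240 was at 0.950 times. Under the 4-fold rule 0 of the 5 members were called higher in the rhizome and 2 were called lower in it. Across the 12826 loci that reached 5 RPKM in either organ, 1.80% were 4-fold or more higher in the rhizome and 9.02% were 4-fold or more higher in the shoot. At 2-fold the calls were the same, beside a background of 11.0% in favour of the rhizome and 16.8% in favour of the shoot. At 8-fold Sb03g043900 alone was called, beside 0.756% of loci in favour of the rhizome and 5.22% in favour of the shoot. A minimum of 20 RPKM likewise left Sb03g043900, beside 1.65% of loci in favour of the rhizome and 11.1% in favour of the shoot. A minimum of 1 RPKM called both members, beside 2.73% in favour of the rhizome and 9.25% in favour of the shoot. In the rhizome 2 members reached 5 RPKM and in the shoot all 5 did, so 3 of them, both called members among these, entered through their shoot level. With 5 members, the count describes this family and these libraries only.

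**Figure D1:**
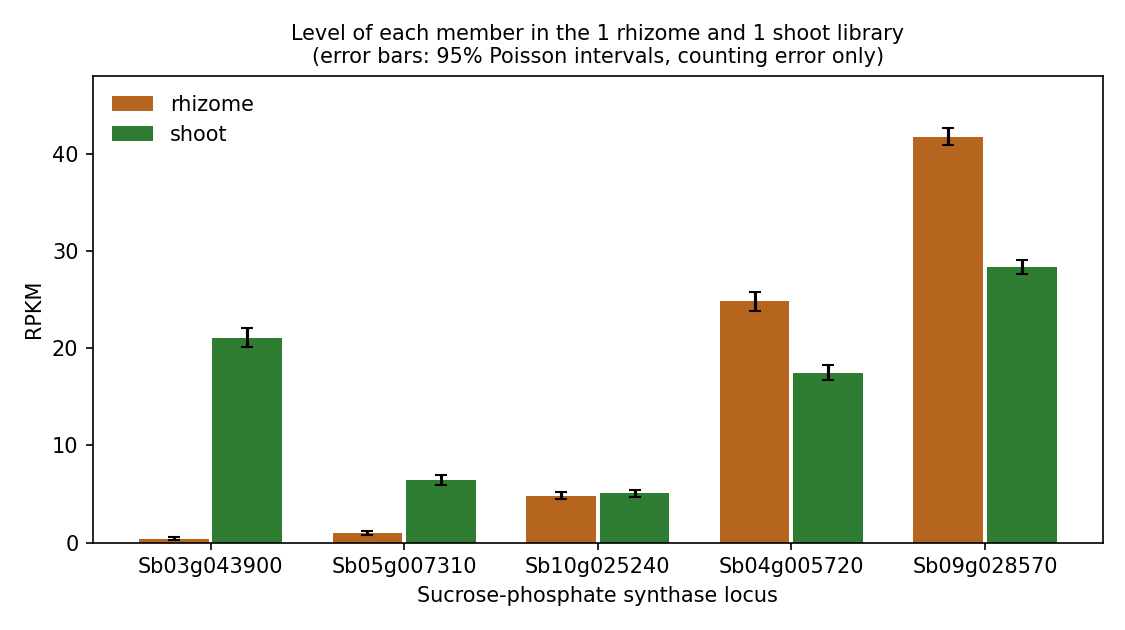
RPKM of each sucrose-phosphate synthase locus (vertical axis, starting at 0) in the rhizome library (brown) and the shoot library (green), with 95% Poisson intervals for counting error as error bars. Sb03g043900 stands at 0.410 RPKM in the rhizome and 21.1 RPKM in the shoot, while Sb09g028570 is the highest member in both organs.

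Sb03g043900 showed the widest gap of the 5 members. It had 37 reads in the rhizome and 1937 in the shoot, which is 0.410 RPKM (interval 0.288 to 0.565) in the rhizome and 21.1 RPKM (20.2 to 22.0) in the shoot. It was the lowest member of the family in the rhizome and the second highest in the shoot. The locus was 51.5-fold lower in the rhizome, with an interval of 37.2-fold to 73.3-fold. Whether its 37 rhizome reads came from a few cells with many copies or many cells with few cannot be told apart in a bulk sample. That holds for every member here.

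The ratio of Sb03g043900 was also low among loci in general. Of the 12826 loci at 5 RPKM or more in either library, 215 (1.68%) had a lower ratio of rhizome to shoot. A closer comparison takes loci of like abundance in the shoot, within 1.5-fold of its level there. Of 3007 such loci, 39 (1.30%) had a lower ratio, and their median log2 ratio was 0.05. The log2 ratio of Sb03g043900 was -5.69.

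Sb05g007310 was the other member lower in the rhizome. It had 89 reads and 0.950 RPKM (interval 0.763 to 1.17) in the rhizome, against 616 reads and 6.47 RPKM (5.97 to 7.00) in the shoot. The difference was 6.80-fold, with an interval of 5.44-fold to 8.60-fold, which lay wholly beyond 4-fold. In the shoot this locus was a minor member, and the level there was close to the 5 RPKM that the call requires. Of the 4479 loci within 1.5-fold of its shoot level, 239 (5.34%) had a lower ratio, and 755 of all 12826 (5.89%) did. Its deficit in the rhizome was smaller than that of Sb03g043900. The ratio of rhizome to shoot was 7.56 times as high for Sb05g007310 as for Sb03g043900 (interval 5.04 to 11.5).

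Sb09g028570 was the leading member in both organs. It had 8197 reads and 41.8 RPKM (interval 40.9 to 42.7) in the rhizome, against 5657 reads and 28.3 RPKM (27.6 to 29.1) in the shoot. The ratio of rhizome to shoot was 1.47 (1.42 to 1.53), beyond counting error and short of the 2-fold line. Among loci at 5 RPKM or more in either library, 84.8% lay below it in the rhizome and 76.2% lay below it in the shoot. A ratio of this size was common, since 29.3% of those loci had a higher one.

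Sb04g005720 showed nearly the same balance at a lower level. It had 2638 reads and 24.8 RPKM (23.9 to 25.8) in the rhizome, against 1892 reads and 17.5 RPKM (16.7 to 18.3) in the shoot, a ratio of 1.42 (1.34 to 1.51). Of the loci at 5 RPKM or more in either library, 32.5% had a higher ratio. Sb09g028570 stood at 1.68 times the RPKM of Sb04g005720 in the rhizome and at 1.62 times in the shoot. Their ratios of rhizome to shoot differed by 1.04 times, with an interval of 0.970 to 1.11 that includes 1. Of the 10 pairs of members this was the only one whose ratios did not differ beyond counting error, and the interval still allows a difference of up to 1.11 times.

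Sb10g025240 had the ratio closest to 1 of the 5 members in the deposited scaling, though not under median-of-ratios scaling, where its log2 ratio was -0.30 and that of Sb04g005720 was 0.28. It had 766 reads and 4.82 RPKM (4.48 to 5.17) in the rhizome, against 820 reads and 5.07 RPKM (4.73 to 5.43) in the shoot. The ratio of rhizome to shoot was 0.950 (0.860 to 1.05), and the interval includes 1. Depth allows a difference of up to 1.16-fold in favour of the shoot. It was the third member by level in the rhizome and the last in the shoot, a change of place that comes from the other members. Its level per length was 11.8 times that of Sb03g043900 in the rhizome and 0.240 times in the shoot.

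**Figure D2:**
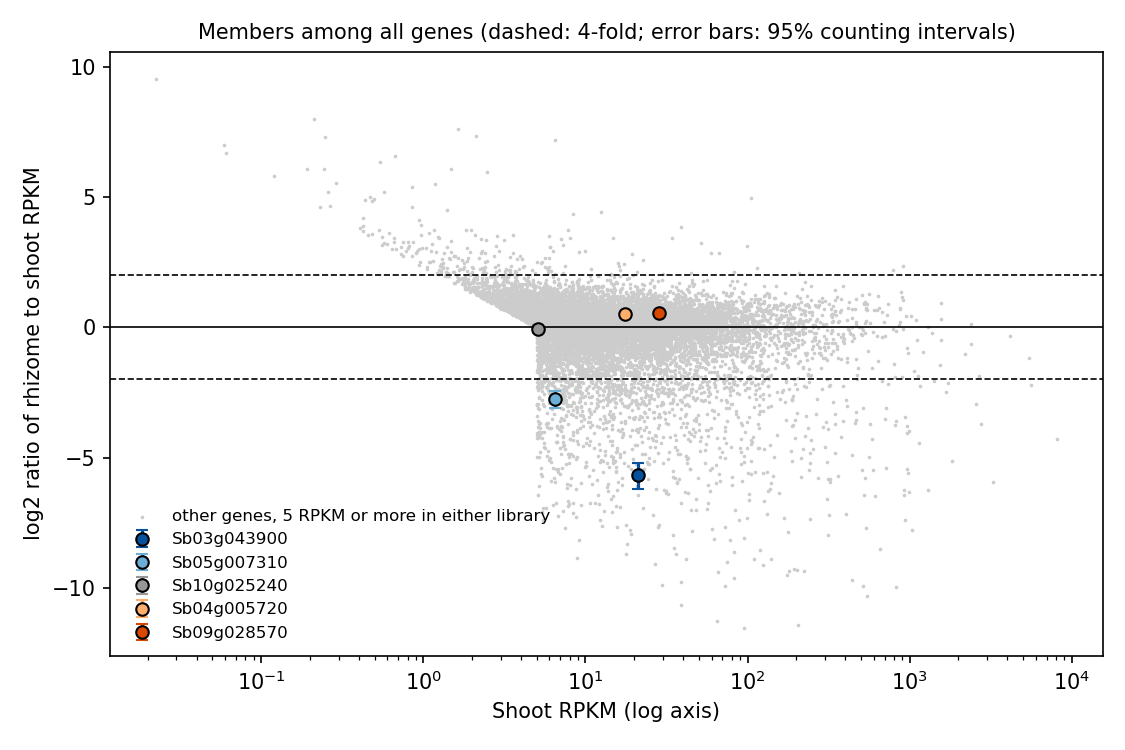
Log2 ratio of rhizome to shoot RPKM (vertical axis) against shoot RPKM (horizontal, log axis) for loci with at least 5 RPKM in either library, with the 5 members as large points and 95% counting intervals as error bars. The 51 loci at 0 reads in the rhizome and the 10 at 0 reads in the shoot are not drawn. Sb03g043900, at -5.69, and Sb05g007310, at -2.77, lie below the dashed 4-fold line, and the other members lie near 0.

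The typical locus was slightly higher in the rhizome as the values were deposited, which bears on the small ratios. Among loci with at least 1 RPKM in both libraries the median log2 ratio of rhizome to shoot was 0.22, a factor of 1.17. Relative to that median, Sb09g028570 was at 1.26 times in the rhizome (interval 1.22 to 1.31) and Sb04g005720 at 1.22 times (1.15 to 1.29). On the same footing Sb10g025240 was at 0.815 times (0.738 to 0.900), so its interval includes 1 in the deposited scaling and lies below 1 relative to the median locus. Scaling by the trimmed mean of M-values (TMM) placed it at 0.843 times (0.763 to 0.932). Sb03g043900 was 60.0-fold lower in the rhizome relative to the median locus (43.4 to 85.5), and Sb05g007310 was 7.93-fold lower (6.34 to 10.02). The median log2 ratio of the 5 members was -0.07 and that of all 12826 loci at 5 RPKM or more in either library was 0.20.

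**Figure D3:**
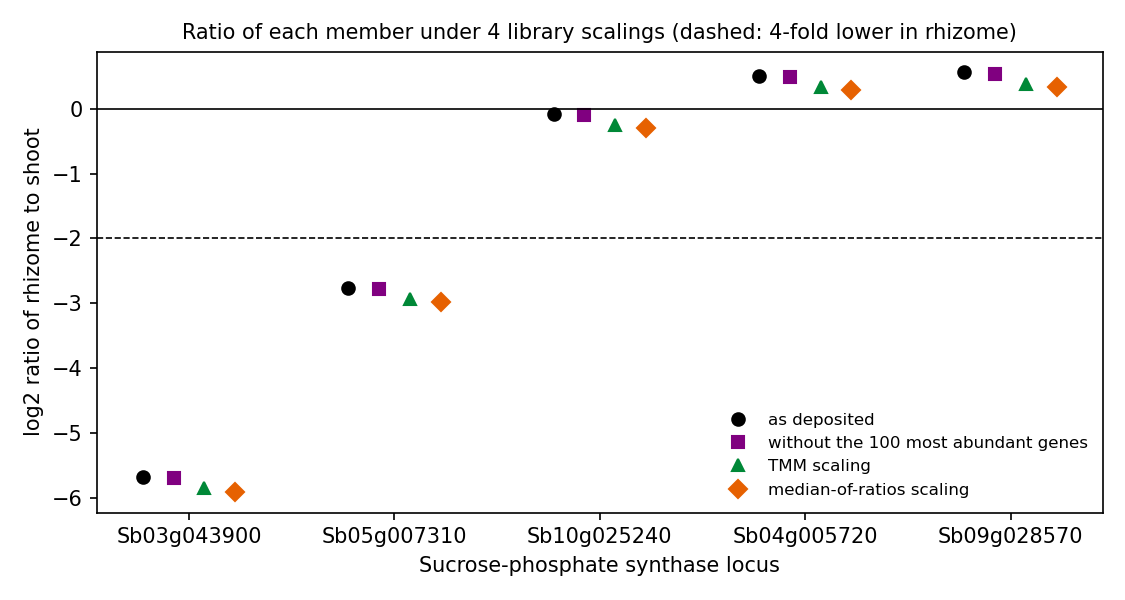
Log2 ratio of rhizome to shoot (vertical axis) of each member under 4 library scalings: as deposited, with the 100 genes richest in reads in either library left out, TMM and median-of-ratios. Sb03g043900 and Sb05g007310 stay beyond the dashed 4-fold line under each scaling, Sb04g005720 and Sb09g028570 stay above 0, and Sb10g025240 lies between -0.07 and -0.30.

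The share of each member in the family total differed between the organs. In the rhizome Sb09g028570 made up 57.4% of the summed RPKM, Sb04g005720 34.1%, Sb10g025240 6.62%, Sb05g007310 1.31% and Sb03g043900 0.563%. In the shoot Sb09g028570 made up 36.1%, Sb03g043900 26.9%, Sb04g005720 22.3%, Sb05g007310 8.24% and Sb10g025240 6.46%. Sb04g005720 and Sb09g028570 together therefore held 91.5% of the family RPKM in the rhizome and 58.4% in the shoot. Sb03g043900 and Sb05g007310 together held 1.87% in the rhizome and 35.1% in the shoot. By reads the first pair held 92.4% in the rhizome and 69.1% in the shoot. The second pair held 1.07% of reads in the rhizome and 23.4% in the shoot. Shares of one total are not independent, so a larger share of one member is in part the smaller share of another. The RPKM share of Sb10g025240 differed by 0.160 percentage points (rhizome minus shoot), and its share of reads by -0.976 points.

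**Figure D4:**
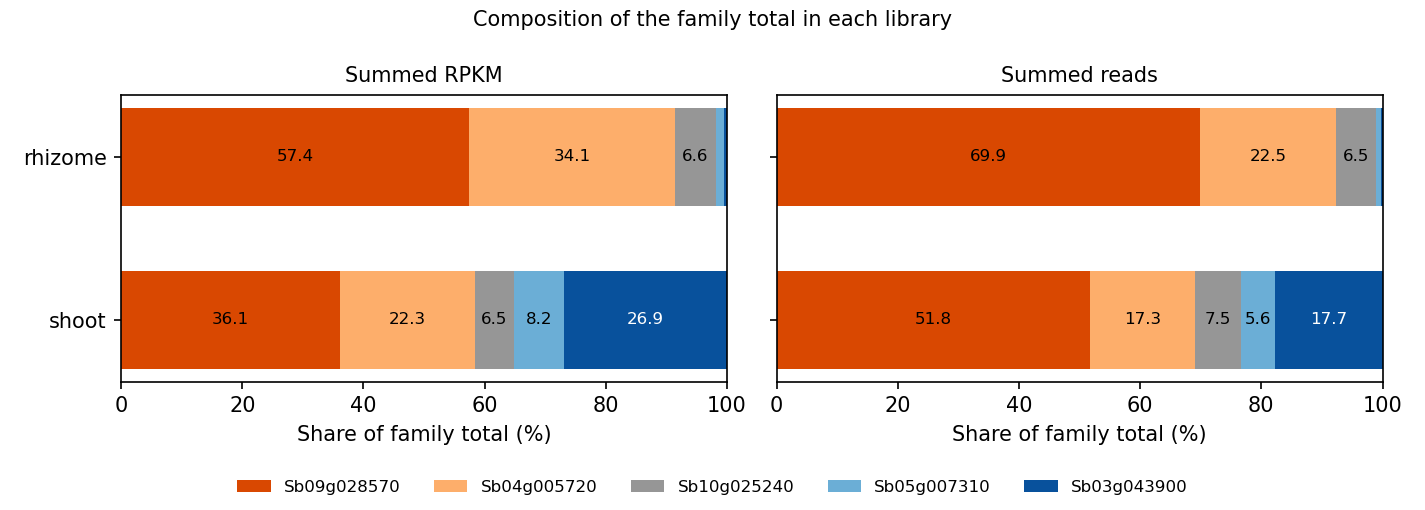
Share of each member in the family total (horizontal axis, percent) in the rhizome library (upper bars) and the shoot library (lower bars), by summed RPKM on the left and by summed reads on the right. Sb03g043900 takes 26.9% of the shoot RPKM total and 0.563% of the rhizome total. The order of Sb05g007310 and Sb10g025240 in the shoot differs between the panels.

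The rhizome family was thus spread over fewer members. The effective number of members is the inverse of the sum of squared shares and would be 5 if all were equal. By RPKM it was 2.22 in the rhizome and 3.80 in the shoot, and by reads 1.84 and 2.95. The highest member stood 101.9-fold above the lowest in the rhizome and 5.59-fold in the shoot. To turn the composition of one organ into that of the other, 33.3% of the family RPKM would have to be placed on other members. For the family reads the value was 23.3%. In both organs each member differed from the next in the order of RPKM beyond its counting interval. That interval does not cover any error in the deposited lengths, on which the order by RPKM depends. The closest neighbours in the shoot were Sb03g043900 over Sb04g005720, at 1.21-fold, and Sb05g007310 over Sb10g025240, at 1.28-fold.

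The summed level of the family depended on the unit of the sum and on the scaling of the libraries. By RPKM it was 72.7 in the rhizome and 78.4 in the shoot, a ratio of 0.927 (approximate interval 0.902 to 0.953). By reads it was 11727 in the rhizome and 10922 in the shoot, or 0.0695% and 0.0637% of the reads in genes, a ratio of 1.09 (1.06 to 1.12). Both ratios are in the deposited scaling. Median-of-ratios and TMM scaling multiply a ratio by 0.858 and 0.888, which takes both below 1. The deposited lengths of the members run from 5356 bases for Sb03g043900 to 11643 for Sb09g028570, so a sum of reads weights Sb09g028570 more. How the lengths were measured is not stated. A length that includes introns would change the levels of members relative to each other, and so the shares, but not the ratio of any member between the organs. In RPKM, Sb03g043900 and Sb05g007310 together differed by -26.2 (rhizome minus shoot), while Sb04g005720 and Sb09g028570 together differed by 20.7. The family total without Sb03g043900 was 72.3 RPKM in the rhizome and 57.3 in the shoot, a ratio of 1.26 (1.23 to 1.30). Without Sb05g007310 the ratio was 0.997 (0.970 to 1.03). In the deposited scaling the direction of the RPKM sum thus turned without Sb03g043900 and fell within counting error of equality without Sb05g007310. Multiplied by 0.858 or 0.888, the interval without Sb05g007310 lies below 1 and that without Sb03g043900 stays above 1.

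Shares of reads, which use no length, kept the direction of the contrast between the organs for 4 of the 5 members and turned it for Sb10g025240. Sb03g043900 held 0.316% of the family reads in the rhizome (interval 0.222% to 0.435%) and 17.7% in the shoot (17.0% to 18.5%). Sb05g007310 held 0.759% in the rhizome (0.610% to 0.933%) and 5.64% in the shoot (5.21% to 6.09%). Sb09g028570 held 69.9% in the rhizome (69.1% to 70.7%) and 51.8% in the shoot (50.9% to 52.7%), and Sb04g005720 held 22.5% in the rhizome (21.7% to 23.3%) and 17.3% in the shoot (16.6% to 18.0%). Sb10g025240 held 6.53% in the rhizome (6.09% to 6.99%) and 7.51% in the shoot (7.02% to 8.02%), so by reads its share was lower in the rhizome beyond counting error. By reads Sb03g043900 and Sb04g005720 did not differ beyond counting error in the shoot, at 1937 and 1892 reads, whereas Sb10g025240 stood above Sb05g007310, at 820 and 616. The order of the members in the rhizome was the same by reads and by RPKM.

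The members carry 5 different chromosome numbers in their identifiers (3, 4, 5, 9 and 10), so none is listed beside another. Of the 10 loci listed directly before or after a member, 5 reached the 5 RPKM that the 4-fold rule requires. Of these 5, 0 passed the rule in favour of the rhizome and 1 passed it in favour of the shoot, beside the background of 1.80% and 9.02% over all loci. That locus precedes Sb10g025240 and had 177 reads in the rhizome against 1988 in the shoot, an 11.0-fold difference that Sb10g025240 did not share. Sb03g043900 is listed between a locus with 4 reads in the rhizome and 0 in the shoot and a locus with 965 reads in each library. Neither showed its contrast between the organs. Around Sb05g007310 the adjacent loci had at most 17 reads in the rhizome and 7 in the shoot. Whether reads of overlapping or near-identical loci were split between members by the authors' counting is not stated, and the small rhizome counts of Sb03g043900 and Sb05g007310 are uncertain to that extent.

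Few loci showed the same pair of levels as Sb03g043900. Likeness was measured as the difference on the log2(RPKM + 1) scale in each of the 2 libraries, and 13 other loci lay within 0.25 of Sb03g043900 in both. The numbers were 60 for Sb05g007310, 243 for Sb09g028570, 407 for Sb04g005720 and 559 for Sb10g025240. The nearest locus to Sb03g043900 was Sb09g030350, at 17 reads and 0.499 RPKM in the rhizome, against 754 reads and 21.7 RPKM in the shoot. The nearest to Sb09g028570 was Sb04g005040, with 41.7 RPKM in the rhizome and 28.3 RPKM in the shoot. With 2 libraries, loci can share such a pair of levels without sharing anything else.

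Other genes of sucrose metabolism, such as sucrose-phosphatase, sucrose synthases, invertases and sucrose transporters, could not be set beside the members, since 0 of 10 lists defined by product names could be filled from unnamed identifiers. For the same reason the organ labels could not be checked against marker genes, and any difference in cell types between the libraries, such as the amount of green tissue, cannot be told apart from a difference within cells. No protein or promoter sequences were used.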

How the data were processed

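Total RNA was extracted with TRIzol and sequenced as Illumina libraries, per the labels' protocols, from 1 rhizome and 1 shoot sample grouped by the tissue label. How the reads were aligned and counted, on which build and annotation, with what filters and whether by strand is not given in the sources used here. Read counts per locus were deposited as whole numbers, per the file headers. The authors' RPKM values were recomputed from count, deposited length and the total of the count column and differed by less than 0.0001.

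No test was run, since 1 library per organ leaves a count model without residual degrees of freedom, and edgeR (4.0.16, R 4.3.3) was used for TMM factors only (trims of 30% and 5%). Ratios of counts, scaled by the library totals, carry 95% Clopper-Pearson intervals from the exact conditional binomial, shares of reads exact Clopper-Pearson intervals, levels exact Poisson intervals, ratios of ratios exact conditional odds-ratio intervals, and the ratio of summed RPKM a delta-method interval. All 5 members are named, with the loci nearest to the members of lowest and highest ratio, since at most 2 unnamed identifiers were to be given. The members, lists and rules were chosen with earlier results of these data known. The code was tested on simulated data. Alternatives were other scalings, minimum levels of 1 and 20 RPKM, thresholds of 2-fold and 8-fold, a pseudocount of 1 RPKM, sums and shares of reads, sums without each member, and intervals wholly beyond 4-fold. Computation used scipy 1.17.1, pandas 2.3.3 and numpy 2.4.6 in Python 3.11.15, with matplotlib 3.10.9 for plots.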

Additional observations from a re-analysis of the deposited data

How the results depend on the processing

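The 2 members called lower in the rhizome kept that call at 2-fold, at a minimum of 1 RPKM, under 3 other scalings and with intervals wholly beyond 4-fold. The count was 1 at 8-fold and 1 at a minimum of 20 RPKM, Sb03g043900 in each case, and 0 members were called higher in the rhizome under any of these. A pseudocount of 1 RPKM brought the log2 ratio to -3.97 for Sb03g043900 and -1.94 for Sb05g007310, by construction, since it compresses low levels. The second of these is a ratio of 0.261, which falls short of 4-fold. Median-of-ratios and TMM scaling gave log2 ratios of 0.28 and 0.33 for Sb04g005720, 0.34 and 0.39 for Sb09g028570, -0.30 and -0.25 for Sb10g025240, and -0.33 and -0.28 for the family total. The family total had a log2 ratio of -0.11 as deposited, 0.13 by reads, 0.33 without Sb03g043900, -0.35 without Sb04g005720, -0.0037 without Sb05g007310 and -0.69 without Sb09g028570. Shares of reads in the rhizome were 0.316%, 22.5%, 0.759% and 69.9% for Sb03g043900, Sb04g005720, Sb05g007310 and Sb09g028570, and in the shoot 17.7%, 17.3%, 5.64%, 51.8% and 7.51% for these and Sb10g025240. They differ from RPKM shares because no length enters. Of 55 alternative values, 29 stayed within counting error or 1.5 times of a count and 26 moved. A change of sign was scored only for the ratios of the 2 called members, and 0 were found. That outcome was fixed in advance, since the scalings shifted log2 ratios by -0.22 at most and a pseudocount cannot turn a sign. In the deposited scaling the sign of the family total did turn by reads and without Sb03g043900, and these values were counted as moved. Sums of reads and sums without a member were not among the values set under the other scalings.

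Alternatives for the pathway lists were not run, with 0 of 10 lists filled. No paired analysis was possible because there was a single library of each organ, which also leaves no replicate to omit. Variation between plants is not measured here. Counting error is widest, relative to the count, for the 37 and 89 rhizome reads of Sb03g043900 and Sb05g007310, and it also leaves the deposited ratio of Sb10g025240 and the difference between Sb09g028570 and Sb04g005720 undecided.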
